A study of Mus musculus with 10 samples.

Results

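The cytosolic ribosomal proteins are the proteins that, together with the ribosomal RNAs, build the large and the small subunit of the ribosome of the cytoplasm. Their genes were taken from the table of gene counts by symbol. A gene was a member when its symbol was Rpl or Rps followed by a number, with at most the closing letters a, l or x, or when it was Rplp0, Rplp1, Rplp2 or Rpsa. Kinases named Rps6k, symbols ending in y or in -ps and pseudogenes were left out. The rule found 81 of the 18025 genes in the table, 50 of the large and 31 of the small subunit. The rule itself used no measured value, but it was set with earlier results of these data known.

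The data were messenger RNA profiles of the gastrocnemius, the large fast muscle of the calf, in C57BL/6 mice. All mice were wild type, with an age of 8 weeks in the labels. 5 libraries are labelled control. The other 5 are labelled COPD, for chronic obstructive pulmonary disease, which the study modelled with cigarette smoke. The labels do not say whether each library came from its own animal, nor do they name sex, litter or batch, so a p-value here measures the spread between these libraries. Library totals ran from 14085854 to 17251034 expected counts. All fold changes are COPD over control.

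Ribosomal proteins are made in matched amounts, and their messenger RNAs belong to the class that begins with a run of pyrimidines, the terminal oligopyrimidine or TOP start. Translation of TOP messages is controlled by the growth kinase mTOR through the binding protein Larp1. Striated muscle is known for a paralogue of one large subunit protein: Rpl3l takes the place of Rpl3, a protein that reaches close to the peptidyl transferase centre, in the ribosomes of mature fibres.

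The start of the coding sequence of Rpl3 and of Rpl3l is shown because the results turn on telling these genes apart. The first 90 coding bases from GENCODE M21 transcripts follow, 5′ to 3′, with capitals at the 21 bases that differ.
Rpl3: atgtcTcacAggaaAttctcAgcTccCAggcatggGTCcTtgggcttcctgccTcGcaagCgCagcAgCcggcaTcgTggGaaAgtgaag
Rpl3l: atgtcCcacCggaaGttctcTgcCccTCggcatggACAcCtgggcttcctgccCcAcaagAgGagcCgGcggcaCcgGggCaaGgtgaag
Over the whole coding region, of 1212 bases in Rpl3 and 1224 in Rpl3l, the genes shared 73.9% of the 1212 aligned bases and differed at 316. The longest run of bases that they shared was 22.

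The start of transcription is shown for members that carry the TOP run and for Rpl3l, which does not. RefSeq (GRCm38.p6) promoters, each 250 bases before and 50 after an annotated start, matched 61 members. Windows of 15 bases before and 15 from the annotated first base follow, with the pyrimidine run from that base in capitals.
Rpl15 (chr14:18270972-18271001, minus strand): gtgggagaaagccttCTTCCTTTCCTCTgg
Rpl35 (chr2:39005117-39005146, minus strand): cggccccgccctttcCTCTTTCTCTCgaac
Rps10 (chr17:27635230-27635259, minus strand): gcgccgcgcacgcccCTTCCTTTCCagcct
Rps18 (chr17:33955651-33955680, minus strand): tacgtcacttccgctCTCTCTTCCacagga
Rpl3l (chr17:24727811-24727840, plus strand): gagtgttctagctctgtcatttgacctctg
The runs held 13 bases in Rpl15, 11 in Rpl35, 10 in Rps10 and 9 in Rps18, and 0 in Rpl3l. A first base C followed by at least 4 pyrimidines was annotated in 14 of the 61 members (23%) and in 3.01% of all 27025 genes with a promoter in that table. The ETS word CCGGAAG stood on either strand of the 300-base promoter in 25 members (41%) and in 9.93% of all genes. Of the 14204 genes of the count table with a promoter, 15.5% held it. A longer YY1 word searched in the same way stood in 0 members and in 1.29% of the genes of the count table. A run of at least 8 pyrimidines from a C within 25 bases of the annotated start was present in 37 members (60.7%) and in 19.4% of all genes. These words and starts describe the annotation, and an annotated first base can lie some bases away from the one used in muscle.

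Most members were abundant messages. Of the 81 genes, 79 passed the filter on low counts. Rpl32l and Rpl39l did not: their expected counts over all 10 libraries summed to 9.57 and 13, with at most 2.36 and 5 in a library. On the TPM scale, which compares genes per length, the mean level over all libraries had a median of 720 over the 79 genes, which was the level of Rpl3l, and ran from 9.70 for Rps6 to 2125 for Rps2. Rps2, a small subunit protein, was followed by Rplp1, an acidic protein of the stalk that recruits elongation factors, at 1910 TPM. Rps15 was at 1631 TPM, Rpl35 at 1623, Rps26, which lies near the messenger RNA exit, at 1583, and Rpl23a, which lies at the exit of the peptide tunnel, at 1572. The ranges of these genes overlapped across libraries: Rps15 ran from 1230 to 2426 TPM and Rpl23a from 1171 to 2105.

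At the low end, some levels rest on how reads were shared out. Rps6, the small subunit protein that S6 kinases phosphorylate, held 79.2 to 170 expected counts in a library, while the pseudogene Rps6-ps4 held 4410 to 8847. The coding regions of both are identical over 750 bases, and 97.3% to 98.3% of the counts of the pair were assigned to the pseudogene, so the level of Rps6 cannot be read from its own row. Rps15a was next at 37.7 TPM, but it had 49.0 expected counts for each TPM against a median of 6.51 over the members, and its level per length is uncertain for that reason. Rpl3 stood at 77.6 TPM and Rpl22, an RNA-binding large subunit protein, at 115.

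No member passed the test between COPD and control. Of the 79 tested, 0 had a Benjamini-Hochberg adjusted p under 0.05 by edgeR's quasi-likelihood test, against 8 of all 12697 genes (0.063%). At an unadjusted p under 0.05, 1 member (Rpl5) was lower and 0 were higher, against 14.6% of all genes in either direction and 6.63% in the lower one. DESeq2 called 0 members (405 of all genes, 3.19%), as did limma's voom with sample weights (137 of all genes, 1.08%). The control and COPD libraries did not overlap in CPM (counts scaled to library totals and TMM factors) for 0 members and for 2.84% of all genes.

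The members lay on one side of 0 more often than all genes did. 68 of the 79 had a log2 fold change below 0 (86.1%), against 52% of all genes, and their median was -0.13 against -0.01 for all genes. The median was -0.15 over the 48 tested members of the large subunit and -0.11 over the 31 of the small subunit. The 4 members on the X chromosome (Rpl10, Rpl36a, Rpl39 and Rps4x) had a median of -0.19. The 3 stalk proteins were on the other side in this fit, with values of 0.04 for Rplp0, 0.10 for Rplp1 and 0.17 for Rplp2.

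**Figure D1:**
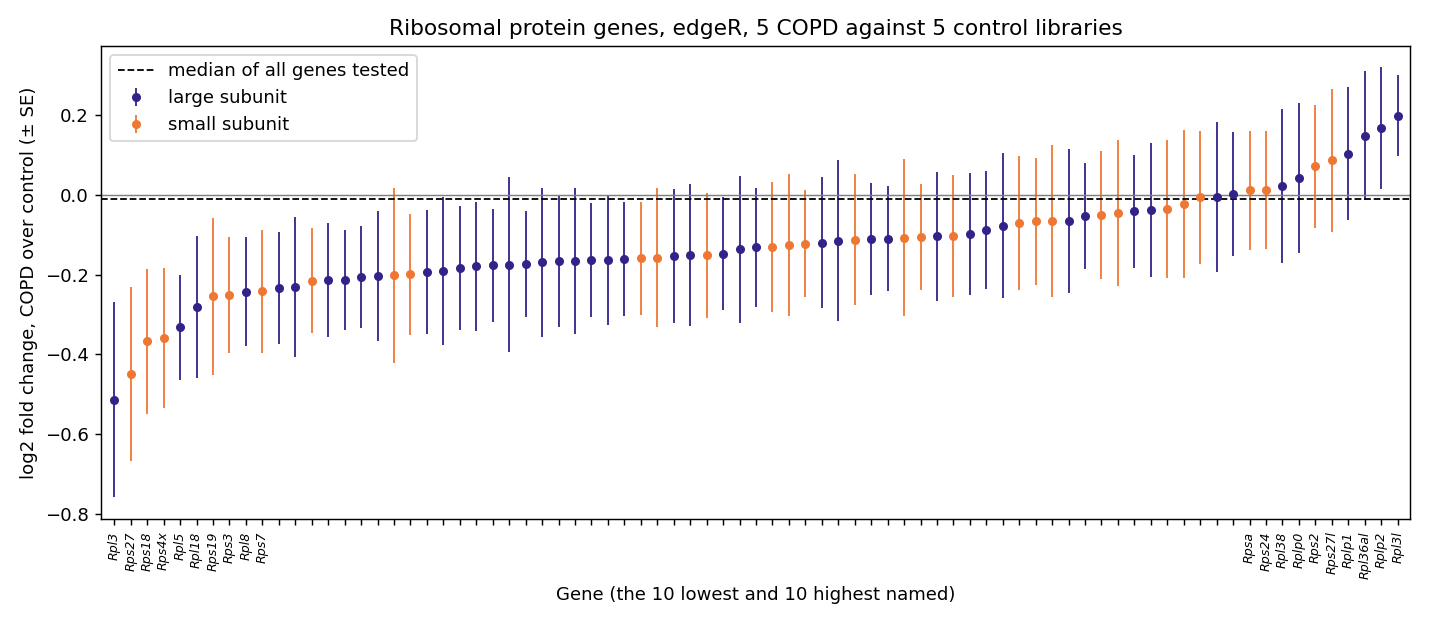
Log2 fold change, COPD over control, with its standard error from edgeR for each of the 79 tested ribosomal protein genes, in order of size, coloured by subunit, with names at the 10 lowest and 10 highest; the dashed line is the median of all genes tested. Values run from -0.51 (Rpl3) to 0.20 (Rpl3l), and no gene passed the adjusted threshold.

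The size of this shift depended on single libraries. Each gene's log2 CPM was centred on its mean over the 10 libraries, and the median over members was taken in each library. The median was -0.07, 0.06, 0.02, 0.49 and -0.18 in control replicates 1 to 5, and 0.31, -0.15, -0.22, -0.32 and 0.04 in COPD replicates 1 to 5. The groups overlapped throughout. Over all genes tested, medians taken in the same way ran from -0.0115 in COPD replicate 2 to 0.0085 in control replicate 1. Control replicate 4 was the highest library for 66 of the 79 members and COPD replicate 1 for 12, while COPD replicate 4 was the lowest for 52. The shares of all genes with such extremes are not given here. Without control replicate 4 the median fold change of the members was -0.0036, with 42 below 0 and 37 above (51.6% of all genes were below 0), where all genes had a median of -0.0084. It was -0.24 without COPD replicate 1, -0.07 without COPD replicate 4 and -0.08 without COPD replicate 3. In each of these fits 0 members were called.

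**Figure D2:**
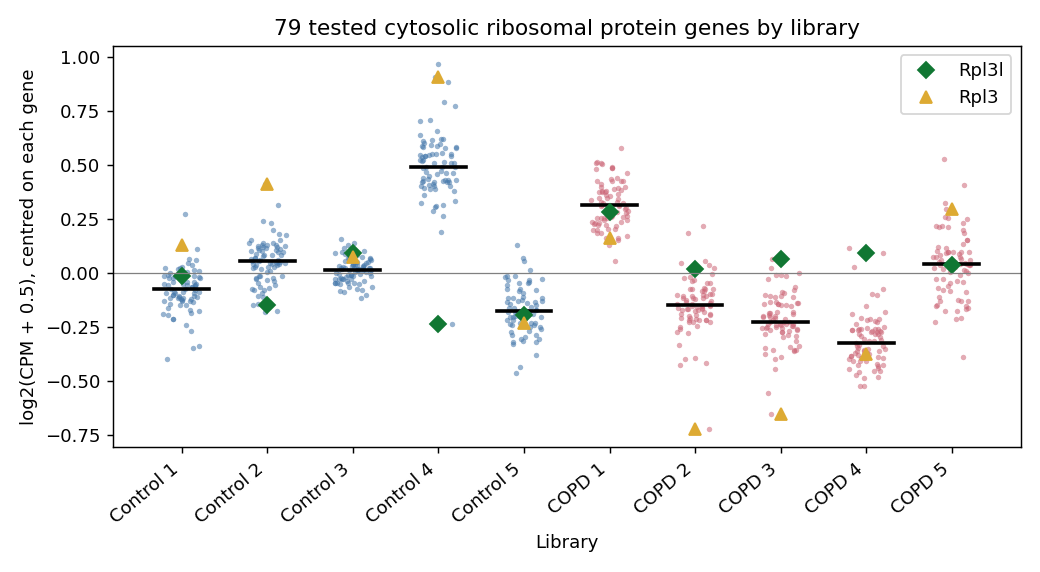
Log2 CPM of the 79 tested ribosomal protein genes, centred on each gene's mean, in the 5 control and 5 COPD libraries; each small point is a gene and each bar the median, with Rpl3 and Rpl3l marked. The median reaches 0.49 in control replicate 4 and -0.32 in COPD replicate 4, and Rpl3l lies apart from the other genes in control replicate 4.

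Members moved together from library to library. The SD of log2 CPM over the 10 libraries had a median of 0.27 over the members. It was 0.10 once the median of all members in that library was taken off each gene. That median came from these same genes, and the SDs of all genes are not given here. In control replicate 4, 78 of 79 members were above their own mean, and the exception was Rpl3l. In COPD replicate 1, 79 of 79 were above it. All genes tested had centred medians of 0.0003 in control replicate 4 and -0.0056 in COPD replicate 1. Their shares above the own mean are not given here. The medians of the large and small subunit differed little within a library, at 0.50 and 0.49 in control replicate 4 and -0.31 and -0.35 in COPD replicate 4.

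Summed over all members, ribosomal protein messages held 6.03%, 6.66%, 5.66%, 9.0% and 5.88% of all TPM in control replicates 1 to 5. They held 6.50%, 4.73%, 4.86%, 4.61% and 6.00% in COPD replicates 1 to 5. The mean was 6.65% ± 1.37 (SD, n = 5) in control and 5.34% ± 0.85 (SD, n = 5) in COPD. Control replicate 4 lay above all other libraries, COPD replicates 2, 3 and 4 lay below all controls, and the groups overlapped. Without control replicate 4 the control mean was 6.06% ± 0.43 (SD). In such bulk tissue a smaller share of one kind of cell and less RNA per cell cannot be told apart.

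The size of the difference followed the scale used. With libraries scaled by their totals alone, the members' median was -0.30, and on log2(TPM + 1) with limma it was -0.34 with 79 of 79 below 0 (80.4% of all genes were). All genes then had medians of -0.17 and -0.17. Relative to all genes, the members' median was -0.12 by the TMM-scaled fit, -0.13 by library totals and -0.17 on log2(TPM + 1). At an unadjusted p under 0.05, 37 members were lower on the TPM scale (23.7% of all genes) and 16 by library totals (18.7% of all genes). After adjustment 0 were called on either scale.

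Summed markers of other cells and of fibre state varied from library to library. Control replicate 4 had the highest sum of macrophage markers (125.9 CPM) and of regenerating fibre markers (72.9 CPM), and the lowest sum of fast fibre markers, at 100230 CPM against 135410 to 165200 in the other controls. Slow fibre markers stood at 610 CPM there and at 966 CPM in control replicate 1, against 139 to 150 CPM in the other 3 controls and 94.9 to 338 CPM in COPD. COPD replicate 1 had the highest sums of tendon (198 CPM), smooth muscle (262 CPM) and Schwann cell markers (383 CPM). COPD replicate 4, the lowest library for most members, had the lowest sum for satellite cell markers alone (26.8 CPM). Extremes also fell in other libraries. COPD replicate 2 had the lowest sums of macrophage, neutrophil, fibroblast, endothelial, Schwann cell and regenerating fibre markers. COPD replicate 5 had the highest sums of adipocyte, red cell, satellite cell and fast fibre markers. Summed macrophage markers (9 of the 10 listed genes were in the table, 0 of them at 0 throughout) ran from 71.5 to 125.9 CPM in control and from 37.5 to 112.9 CPM in COPD. Fast fibre markers, 8 of 8 in the table, ran from 100230 to 165200 CPM in control and from 146290 to 186300 CPM in COPD, so the fibre type that makes up this muscle was present in each library. Between the groups, the median log2 fold change was -0.61 over macrophage markers (8 of 9 below 0) and -1.38 over slow fibre markers (7 of 7 below 0). It was 1.08 over tendon markers, 0.53 over fibroblast markers and 0.23 over fast fibre markers (1 of 8 below 0). Neutrophil markers had -1.66 (3 of 3 tested below 0), with a sum of 155 CPM in control replicate 1 against 7.07 to 14.3 CPM in the other controls. Medians of the other lists with tested genes ran from -0.27 (satellite cell) to 0.15 (red cell). 0 of the marker genes tested were called, and their part in the levels of the ribosomal proteins was not tested.

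Transcripts of Y-linked genes were present in all 5 controls and in COPD replicates 2 and 3, and were near 0 in the other 3 COPD libraries. Their presence is thus partly confounded with group in every comparison of all 5 control and all 5 COPD libraries. What goes with these transcripts cannot be fully told apart from COPD there, the X-linked members and the paralogue ratios included. Over the 7 libraries with such transcripts, the members' median fold change was -0.27, with 75 of 79 below 0 against 52.1% of all genes. 0 members were called there, against 488 of 13195 genes (3.7%), and the smallest adjusted p of a member by edgeR was 0.0626, for Rps4x.

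Among large subunit proteins, Rpl5 had the smallest p. Rpl5 binds, with Rpl11, the smallest RNA of the large subunit, and the free complex restrains Mdm2, the ligase that degrades p53. Its control libraries were at 305, 344, 307, 427 and 315 CPM and its COPD libraries at 312, 248, 229, 251 and 309 CPM. COPD replicates 2, 3 and 4 were below all controls, and COPD replicates 1 and 5 lay among them. The log2 fold change was -0.33 ± 0.13 (SE), with an adjusted p of 0.274 by edgeR, the smallest of all members. Rpl11 itself had a log2 fold change of -0.17 ± 0.17 (SE).

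Rpl3 had the lowest fold change of all members, at -0.51 ± 0.24 (SE; edgeR adjusted p = 0.355). Other large subunit members with small p had smaller differences. Rpl8, which lies beside the peptidyl transferase centre, had a log2 fold change of -0.24, Rpl15 one of -0.23, Rpl7a one of -0.21 and Rpl4, which lines the peptide tunnel, one of -0.21. Their adjusted p by edgeR ran from 0.440 to 0.491. For Rpl8, control replicate 4 was at 561.6 CPM and COPD replicate 1 at 480.9 CPM, while the other controls ran from 402.3 to 447.9 CPM and the other COPD libraries from 320.7 to 386.3 CPM.

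Among small subunit proteins the smallest p of the genes named here belonged to Rps27, Rps4x, Rps18 and Rps3. Rps27, a zinc finger protein of the small subunit, was at 230, 301, 237, 472 and 215 CPM in control and at 271, 241, 202, 168 and 185 CPM in COPD. COPD replicates 3, 4 and 5 were below all controls. Its log2 fold change was -0.45 ± 0.22 (SE), with adjusted p = 0.366 by edgeR. Rps4x, encoded on the X chromosome, was at 347, 395, 372, 478 and 330 CPM in control and at 414, 250, 227, 253 and 356 CPM in COPD (log2 fold change -0.36 ± 0.18 SE, edgeR adjusted p = 0.369). Rps18, in the head of the small subunit, was at 218, 267, 229, 393 and 207 CPM in control and at 260, 195, 185, 169 and 210 CPM in COPD (-0.37 ± 0.18 SE, edgeR adjusted p = 0.376). For both, control replicate 4 was the highest library and COPD replicate 1 lay within the range of the controls. Rps3, at the entry of the messenger RNA channel, had a log2 fold change of -0.25 ± 0.14 (SE).

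The stalk proteins showed the spread within COPD. Rplp0 was at 1039, 940, 1129, 1276 and 969 CPM in control and at 1486, 810, 807, 994 and 1413 CPM in COPD. COPD replicates 1 and 5 were the highest of all libraries and COPD replicates 2 and 3 the lowest. Rplp2 was at 189, 216, 215, 284 and 182 CPM in control and at 306, 233, 231, 188 and 261 CPM in COPD. Its log2 fold change of 0.17 ± 0.15 (SE) had an adjusted p of 0.667 by edgeR. The direction of the stalk proteins followed the setting. Their median was 0.10 in the TMM-scaled fit, -0.06 by library totals and -0.11 on log2(TPM + 1). Over the libraries with Y-linked transcripts it was -0.04. All genes had medians of -0.01, -0.17, -0.17 and -0.02 in these settings.

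With the median of all members taken off each library, what remained was each gene's level relative to the other ribosomal proteins. On this scale the difference between the group means was -0.39 for Rpl3, -0.27 for Rps27, -0.25 for Rps4x, -0.21 for Rps18 and -0.20 for Rpl5. It was 0.33 for Rpl3l, 0.30 for Rplp2, 0.29 for Rpl36al, 0.26 for Rps27l and 0.23 for Rplp1. The groups did not overlap for 3 of the 79 members (3.8%). With the same median taken off all genes the share was 1.28%, but this step takes shared spread from the members and adds it to other genes, and in CPM the share of all genes was 2.84%. Nothing particular to the members is read from these counts, and the 3 genes are given as values, named after they were seen. Rplp2 ran from -0.19 to -0.09 in control and from 0.05 to 0.25 in COPD. Rps24 ran from -0.11 to 0.01 in control and from 0.02 to 0.17 in COPD. Rps18 ran from -0.0035 to 0.30 in control and from -0.15 to -0.07 in COPD.

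Rpl3l was the main form of its pair in every library. It held 89.9%, 87.0%, 91.0%, 82.1% and 91.0% of the summed TPM of Rpl3 and Rpl3l in control replicates 1 to 5, and 91.6%, 94.4%, 94.4%, 93.3% and 89.3% in COPD replicates 1 to 5. Rpl3 was at 64.6, 78.5, 62.0, 110.9 and 50.2 CPM in control, and at 65.9, 35.5, 37.3, 45.3 and 72.4 CPM in COPD. COPD replicates 2, 3 and 4 were below all controls, and replicates 1 and 5 were among them. Rpl3l was at 572, 522, 616, 491 and 506 CPM in control, and at 702, 587, 605, 618 and 594 CPM in COPD. 4 of these controls were below all COPD libraries, and control replicate 3 was not. The log2 fold change of Rpl3l was 0.20 ± 0.10 (SE), with adjusted p = 0.402 by edgeR. On log2(TPM + 1) it was -0.002515, where the median of all genes was -0.17.

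The ratio of Rpl3l to Rpl3 within a library needs no scaling between libraries. Its log2 value, from CPM with 0.5 added, was 3.14, 2.73, 3.30, 2.14 and 3.32 in control (2.93 ± 0.50, SD, n = 5) and 3.40, 4.03, 4.00, 3.76 and 3.03 in COPD (3.64 ± 0.42, SD, n = 5). 4 of the 5 COPD libraries were above every control, and COPD replicate 5 lay among the controls. The difference was 0.72, or 1.64-fold, with p = 0.0556 by a two-sided exact permutation test over all relabelings, whose smallest p is 0.00794. On log2(TPM + 1) the difference was 0.73 with p = 0.0397 (exact), so the side of the 0.05 threshold depended on the unit. Adjusted over the 5 pairs, the p from CPM was 0.139. Leaving out 1 library at a time gave differences of 0.52 to 0.87, and p passed the threshold without control replicate 3 (0.0476), control replicate 5 (0.0476) or COPD replicate 5 (0.0159), all by the exact permutation test. Over the 7 libraries with Y-linked transcripts it was 1.09 (exact permutation p = 0.0952, where the smallest p is 0.0476).

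**Figure D3:**
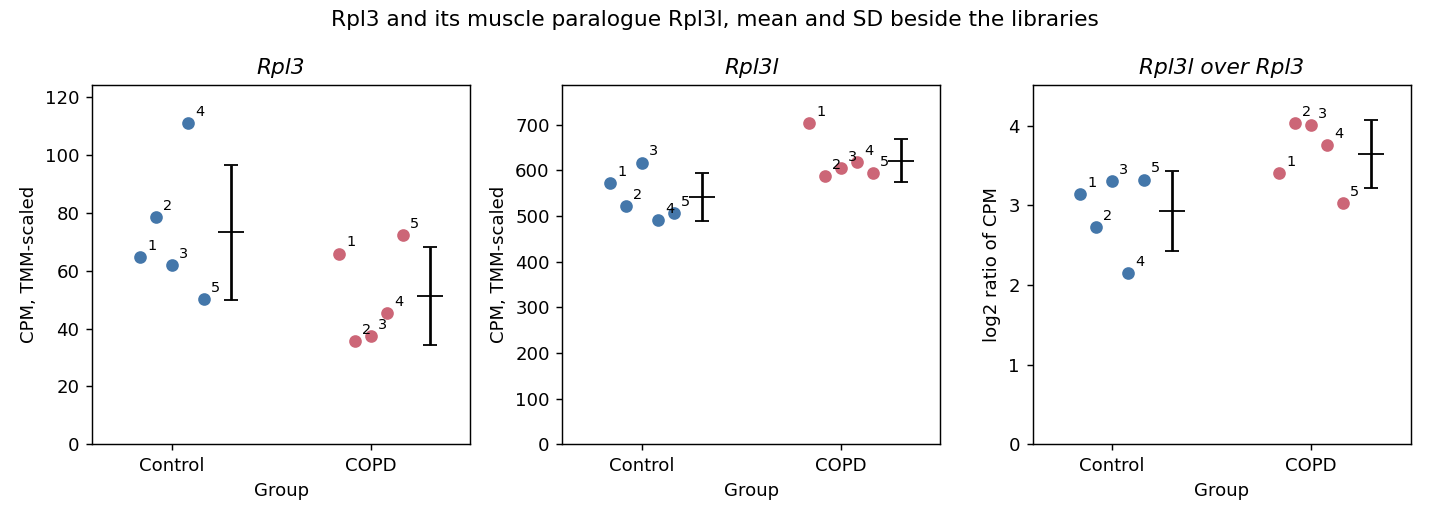
Rpl3 and Rpl3l in CPM and the log2 ratio of Rpl3l to Rpl3 in each of 5 control and 5 COPD libraries, numbered by replicate, with mean and SD beside the points. The ratio averages 2.93 in control and 3.64 in COPD, and COPD replicate 5, at 3.03, lies among the controls.

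Macrophage markers put the COPD libraries in the same order as Rpl3 did, and so did regenerating fibre markers. Rpl3 was lowest in COPD replicates 2 and 3 and highest of that group in COPD replicate 5. Summed macrophage markers were at 37.5, 46.5 and 112.9 CPM in these libraries, and regenerating fibre markers at 34.8, 42.9 and 68.3 CPM. Among controls, replicate 4 was the highest library for Rpl3 and for both sums. Replicate 5 was the lowest control for Rpl3 and macrophage markers, and replicate 2 for regenerating fibre markers (37.4 CPM). Satellite cell markers ran from 31.0 to 42.5 CPM in control and from 26.8 to 43.1 CPM in COPD. The part of any of these markers in the ratio was not tested.

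Rps27l, a close paralogue of Rps27 that p53 is known to induce, was the minor form of its pair. On the TPM scale the ratio of Rps27l to Rps27 was 0.123, 0.105, 0.143, 0.117 and 0.133 in control replicates 1 to 5, and 0.159, 0.173, 0.160, 0.202 and 0.199 in COPD replicates 1 to 5. Every COPD library was above every control. The log2 ratio from CPM was -2.37 ± 0.17 (SD, n = 5) in control and -1.84 ± 0.17 (SD, n = 5) in COPD, a difference of 0.53, or 1.44-fold. The two-sided exact permutation p was 0.00794, the smallest that 5 against 5 libraries allow, and 0.0397 after Benjamini-Hochberg adjustment over the 5 pairs with counts enough for a ratio. The pair was on the list of paralogues, and its test was added after the values were seen. Neither gene was called alone: Rps27 had a log2 fold change of -0.45 and Rps27l one of 0.09 ± 0.18 (SE, edgeR adjusted p = 0.872). The table also holds Rps27rt, a gene named as a copy of Rps27. With its counts added to those of Rps27 the difference was 0.49 (exact permutation p = 0.00794). For Rps27l over Rps27 alone, the difference without control replicate 4 was 0.51. Over the 7 libraries with Y-linked transcripts the difference for Rps27l over Rps27 alone was 0.43 (exact permutation p = 0.0476, the smallest possible there).

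The other pairs did not pass. Rpl36al over Rpl36a, whose coding regions share 87.9% of 321 bases, had a log2 ratio of -0.44 ± 0.17 (SD, n = 5) in control and -0.08 ± 0.38 (SD, n = 5) in COPD, a difference of 0.36 (exact permutation p = 0.0952, adjusted over pairs 0.159). COPD replicate 5, at -0.69, was the lowest of all libraries, and COPD replicates 1 to 4 were above every control. Rpl22l1 over Rpl22 differed by -0.12 (exact permutation p = 0.444) and Rpl7l1 over Rpl7 by 0.09 (exact permutation p = 0.294). Rpl22l1 and Rpl7l1 lie outside the rule by their symbols. On the TPM scale Rpl22l1 was close to its partner, at 100.0 against 115 TPM, while Rpl7l1 was at 23.8 against 658 TPM. Rpl39l, known as a form of male germ cells, was at 0.199 TPM against 276.2 for Rpl39 and was given no test. Rpl10l and Rps4l had no row under these symbols in the table of gene counts and so were not analysed.

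**Figure D4:**
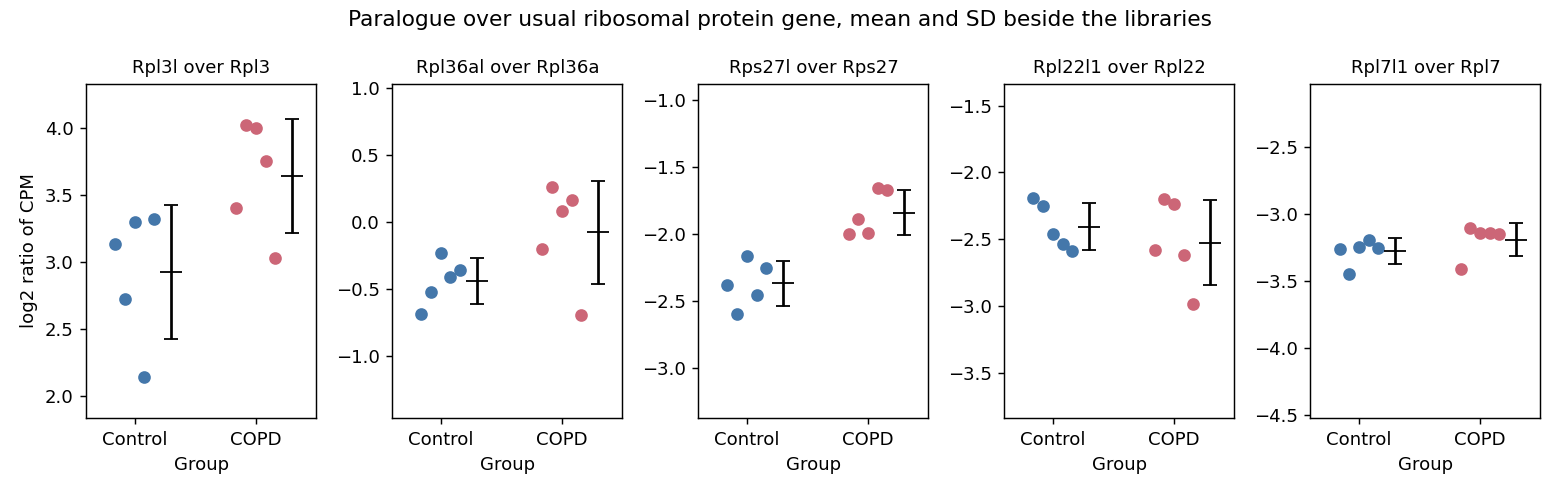
Log2 ratio of CPM of a paralogue to the usual ribosomal protein gene in each of 5 control and 5 COPD libraries for 5 pairs, with mean and SD beside the points and axes of equal length. The groups separate for Rps27l over Rps27, from -2.37 to -1.84 on average, and overlap for the other pairs.

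Genes around the ribosome were taken as fixed lists, and none of their members had an adjusted p under 0.05 by edgeR. Other parts of the cytosolic ribosome outside the rule had 4 of 5 tested genes below 0 and a median of -0.12. Rps3a1, a small subunit protein whose symbol falls outside the rule by its closing digit, was at 754 TPM with a log2 fold change of -0.27 (edgeR adjusted p = 0.420).

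Other messages with a TOP start, mostly translation factors, had 16 of 19 tested genes below 0 and a median of -0.16. At an unadjusted p under 0.05, 5 were lower and 0 higher, against 6.63% and 7.94% of all genes. Among them the initiation factor subunits Eif3e and Eif3f had log2 fold changes of -0.37 and -0.37, the nucleolar chaperone Npm1 -0.31 and the histone chaperone Nap1l1 -0.42, with adjusted p of 0.178 to 0.262 by edgeR. Npm1 also stands on the list of assembly factors. Eif3e was at 109, 133, 114, 143 and 152 CPM in control and at 114, 100, 92, 95 and 103 CPM in COPD, and COPD replicate 1 alone reached the range of the controls. Without control replicate 4 the median of this list was -0.17, where that of the ribosomal proteins was -0.0036.

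Factors of ribosome assembly in the nucleolus had 39 of 58 tested genes below 0 and a median of -0.06, where 52% of all genes were below 0. At an unadjusted p under 0.05, 6 of the 58 were lower and 0 higher, against 6.63% and 7.94% of all genes, which is near the background. As values, the rRNA processing factors Las1l, Dkc1, Pes1 and Bop1 had log2 fold changes of -0.33, -0.33, -0.25 and -0.32, with adjusted p of 0.216 to 0.236 by edgeR. RNA polymerase I, which transcribes the large ribosomal RNAs, and its factors had 8 of 15 below 0 and a median of -0.0036.

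Of the regulators of ribosomal protein messages, 10 of 18 tested genes were below 0, near the 52% of all genes. 1 was lower and 2 higher at an unadjusted p under 0.05, near the 14.6% of all genes. Eif4ebp1, the repressor of cap-dependent translation that mTOR phosphorylates, was at 120.5, 175, 132, 346 and 187 CPM in control and at 82.5, 96.7, 93.7, 80.1 and 95.3 CPM in COPD. Every COPD library was below every control, and control replicate 4 was the highest. Its log2 fold change was -1.10 ± 0.24 (SE), with adjusted p = 0.0963 by edgeR. Max, the partner of Myc, had a log2 fold change of 0.52 (edgeR adjusted p = 0.107), the S6 kinase gene Rps6kb2 one of 0.28 (0.232) and Mlst8, a subunit of the mTOR complexes, one of 0.28 (0.344).

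The mitochondrial ribosomal proteins, the parts of a separate ribosome that makes subunits of the respiratory chain, lay on the other side. Their median was 0.13, and 63 of the 78 tested genes had a value above 0. An unadjusted p under 0.05 was reached by 8 genes in the higher direction (7.94% of all genes) and by 0 in the lower. Mrpl48, Mrpl13 and Mrpl28 had log2 fold changes of 0.39, 0.36 and 0.40, with adjusted p of 0.197 to 0.224 by edgeR. Without control replicate 4 the median was 0.19, and with libraries scaled by their totals alone it was -0.03, against -0.17 for all genes. The difference between the lists of cytosolic and mitochondrial ribosomal proteins was not tested.

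**Figure D5:**
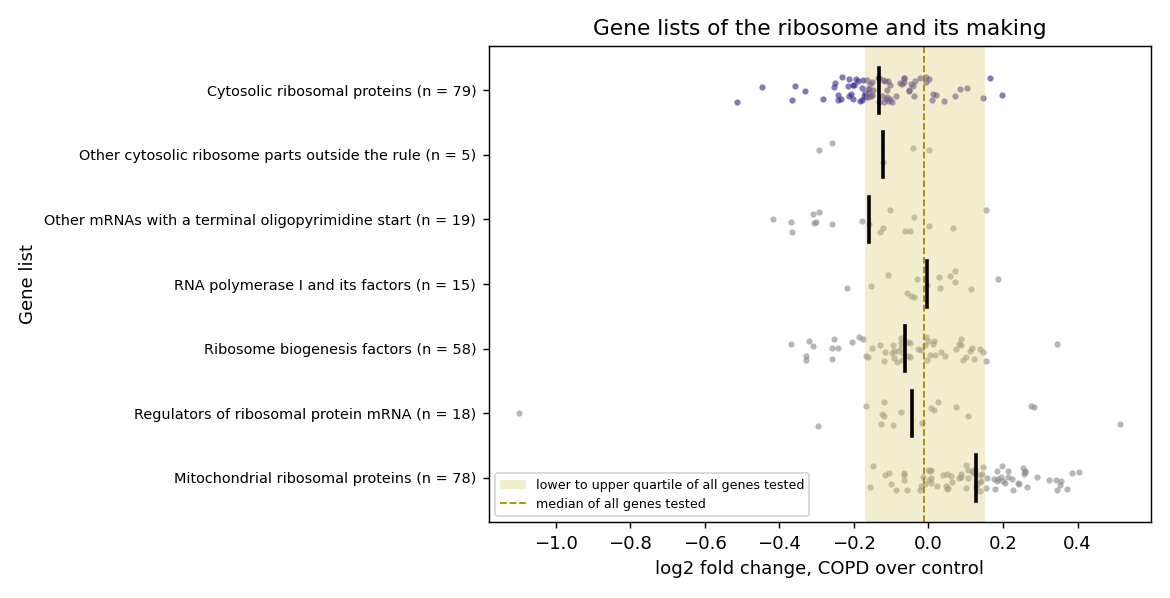
Log2 fold change, COPD over control, of each tested gene in 7 lists of the ribosome and its making; black bars are list medians, the shaded band holds the genes between the lower and upper quartile of all genes tested and the dashed line is their median. The median is -0.13 for cytosolic and 0.13 for mitochondrial ribosomal proteins.

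Ribosomal protein genes are short and abundant, and in the TMM-scaled fit the medians of genes of that kind lay above 0. 65 of the 79 members fell in the tenth of genes with the fewest counts per TPM, a measure of length, where the median fold change of all genes was 0.05. 73 of the 79 were in the tenth with the highest mean CPM, where the median of all genes was 0.02. The part of length or level in the fold changes of the members was not tested. Of other features that bear on the values, exons of 11 members overlap a gene on the opposite strand in GENCODE M21, Rpl15 and Rps18 among them. That annotation names 291 pseudogenes after 59 of the members, of which 3 have rows of their own in the count table. 36 members had counts that were not whole in at least 1 library, among them Rpl3l in 9 libraries and Rps27 in 10. Their partners Rpl3 and Rps27l had whole counts in every library. Some reads of those 36 members were therefore split between rows, and which other rows took part was not tested. Rpl37 and Rpl37rt, which differ at 1 of 294 coding bases, are a pair of near-identical rows.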

How the data were processed

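Messenger RNA of 10 gastrocnemius libraries, 5 control and 5 COPD by their titles, was sequenced after oligo(dT) selection, per the labels' protocols. The authors deposited expected counts per gene (30.7% of values not whole) and TPM for 18025 genes. Tools named in the submitters' processing notes, without roles, are RSEM 1.2.12, Bowtie2 2.2.5, HISAT2 2.0.4 and DESeq2 1.4.5, and the build is mm9. Strand use in counting is not given in the sources used. Library totals were 14085854 to 17251034 expected counts. Libraries differed pairwise by more than sampling noise (chi-square 18.2 to 125 for each degree of freedom).

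Expected counts were rounded, filtered with filterByExpr (12697 genes left), scaled by TMM and compared by edgeR 4.0.16 (glmQLFit, glmQLFTest) in R 4.3.3, with Benjamini-Hochberg adjustment over all genes and a threshold of 0.05. The SE is the log2 fold change over the square root of F. Paralogue ratios were tested by exact permutation, two-sided. Alternatives were DESeq2 1.42.0, limma 3.58.1 on log2 TPM and by voom, other scalings, no filter, a replicate block, libraries with Y-linked transcripts (at least 1 CPM) and leaving out each library. The procedure was tested on simulated data.

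Named were Rpl3 and Rpl3l, the paralogue pairs, the 12 members of smallest p, those whose groups did not overlap, and the 6 of highest and 6 of lowest mean TPM; of each related list, up to 4 genes of smallest p. Rpl11, Rpl37, Rps10, Rps24, Rplp0, Rplp2 and Rps3a1 were added after their values were seen. A gene that the rule took is not reported here by name; it stays in all counts. The members and lists were chosen with earlier results of these data known. No coordinates of mm9 are printed; sequences are from GENCODE M21 and RefSeq, both GRCm38.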

Additional observations from a re-analysis of the deposited data

Results flagged for a closer look

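Some members had a library far from the others of its group, by the gap to the nearest library over the range of the group (Dixon's 95% criterion for 5 libraries). Rpl15 was at 536.9 CPM in control replicate 4, where the next control was at 379.1 CPM. Rpl8 was at 561.6 CPM in that library, next to 447.9 CPM, and Rps3 at 394.7 CPM, next to 295.1 CPM. Rpl3l was at 702.4 CPM in COPD replicate 1, where the next COPD library was at 617.6 CPM, and Rpl7a at 472.2 CPM there, next to 371.2 CPM. Over all 79 tested members, control replicate 4 stood apart for 30 and COPD replicate 1 for 7. The share of all genes flagged in this way is not given here, so nothing particular to the members is read from these counts. Chance flags about 1 in 20 groups, and members that move together are not independent draws.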

How the results depend on the processing

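Under every alternative run, 0 ribosomal protein genes were called. The median fold change of the members stayed below 0, from -0.34 to -0.0036, the latter without control replicate 4. Relative to the median of all genes its sign changed there, to 0.0048, against -0.12 in the TMM-scaled fit of all 10 libraries. The log2 difference of Rpl3l over Rpl3 was 0.72 (exact permutation p = 0.0556). It passed the threshold on log2 TPM with 0.1 added (0.74) and with 1 added (0.73), and leaving out 1 library gave 0.52 to 0.87. The log2 fold change of Rpl3l alone changed sign by limma on TPM, to -0.002515 with 1 added and -0.002521 with 0.1 added, where the median of all genes was -0.17 and -0.21. The cause of these shifts was not tested.

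Replicate numbers did not pair the libraries: correlations of same-numbered deviations ran from -0.14 to 0.04. With the replicate block, 0 members were called, 7 of all genes were, and the members' median was -0.13. Sign flips within replicate numbers gave p = 0.188 (exact) for Rpl3l over Rpl3. For Rps27l over Rps27 they gave 0.53 with exact p = 0.0625, the smallest that 5 pairs allow; leaving out 1 library gave 0.47 to 0.58 there. Of the other values, 300 kept their direction and side of the threshold. Depth left Rpl32l and Rpl39l untested among the members. Sequences and copies were read from another build than the authors used.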
